A study of Mus musculus with 6 samples.

Results

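Transcripts of 10 genes known from oligodendrocytes, Mog, Mobp, Opalin, Hapln2, Olig1, Olig2, Tmem88b, Ermn, Aspa and Cldn11, were followed in libraries of mouse dorsal root ganglia, which hold the cell bodies of sensory neurons outside the spinal cord. All 10 were found by their symbols among the 38926 gene symbols counted. Libraries came from ganglia of lumbar levels L3 to L5 of wild type male C57BL/6 mice aged 6 to 8 weeks, with 3 libraries taken on day 3 after burning and 3 libraries labelled control. The labels do not say what the control mice underwent, whether animals were pooled, or whether libraries came from separate animals, so the spread between libraries may be technical. A burn library titled BURN_IP, without a number, is written burn 3. The letters IP may stand for ipsilateral, which the title does not spell out. Titles of burn 1 and burn 2 name no side. The genes were chosen by name with their read levels in these libraries and the difference between burn and control already known, so they count as selected on those values. Their values in that comparison are therefore given as a description, and nothing is tested with them.

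Oligodendrocytes are the cells that wrap axons in myelin in the brain and spinal cord, while Schwann cells make the myelin of peripheral nerves and ganglia. The 2 kinds of myelin share several proteins, such as that encoded by Mbp, but each also has its own, for example the oligodendrocyte proteins of Mog and Mobp. Sensory axons pass from Schwann cell myelin to oligodendrocyte myelin where the dorsal root enters the spinal cord. Labels mention ganglia alone, both as whole ganglia and as neurons. In bulk tissue such as this, fewer cells of a type and less RNA per cell cannot be told apart.

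Reads counted in genes numbered from 17273908 to 81968142 per library. Burn 3 and control 3 were the deepest, with 70002671 and 81968142, and also had the highest mitochondrial shares, 5.44% and 4.41%, against 1.71% to 2.70% in the other 4 libraries. Levels are given as normalised read counts (CPM) on scaled library sizes. The tissue was checked by its markers: sensory neuron genes were abundant in every library, with Tubb3, a neuronal tubulin, at 2201 ± 345 CPM after the burn and 2376 ± 426 CPM in controls (SD, n = 3 each).

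Start regions of 4 members are shown because their levels differ most in kind: Mog and Opalin separated the groups, Mobp was the most abundant gene with a similar pattern, and Aspa did not follow them. Each sequence runs 5′ to 3′ from 250 bases before to 50 bases after the annotated start (RefSeq, GRCm38.p6), and capitals mark matches, on either strand, to short motifs: ACAAAG and AACAAT for SOX factors, CATATG and CAGCTG for OLIG factors and CTGGCAC and CTGGTAC for MYRF, all of which act in oligodendrocytes, and TATAAA for the TATA box. Mog lies at chr17:37023349-37023648 on the minus strand, Opalin at chr19:41077064-41077363 on the minus strand, Mobp at chr9:120149492-120149791 on the plus strand and Aspa at chr11:73324588-73324887 on the minus strand.
Mog: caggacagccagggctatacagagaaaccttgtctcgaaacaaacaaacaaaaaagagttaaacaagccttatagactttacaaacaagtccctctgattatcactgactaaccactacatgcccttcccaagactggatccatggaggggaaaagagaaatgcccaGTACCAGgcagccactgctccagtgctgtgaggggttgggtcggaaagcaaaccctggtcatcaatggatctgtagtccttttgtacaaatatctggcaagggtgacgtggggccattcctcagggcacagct
Opalin: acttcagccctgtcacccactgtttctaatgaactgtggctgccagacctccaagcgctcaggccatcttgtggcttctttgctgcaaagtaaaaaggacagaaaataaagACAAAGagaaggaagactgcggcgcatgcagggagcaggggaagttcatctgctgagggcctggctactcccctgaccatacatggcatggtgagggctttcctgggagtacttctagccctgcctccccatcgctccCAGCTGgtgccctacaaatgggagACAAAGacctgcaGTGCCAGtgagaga
Mobp: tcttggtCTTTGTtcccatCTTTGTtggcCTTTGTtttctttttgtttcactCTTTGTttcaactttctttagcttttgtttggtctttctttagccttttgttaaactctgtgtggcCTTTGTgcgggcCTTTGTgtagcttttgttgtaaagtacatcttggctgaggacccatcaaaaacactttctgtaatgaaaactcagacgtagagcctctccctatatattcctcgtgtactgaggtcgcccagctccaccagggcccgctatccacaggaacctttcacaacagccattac
Aspa: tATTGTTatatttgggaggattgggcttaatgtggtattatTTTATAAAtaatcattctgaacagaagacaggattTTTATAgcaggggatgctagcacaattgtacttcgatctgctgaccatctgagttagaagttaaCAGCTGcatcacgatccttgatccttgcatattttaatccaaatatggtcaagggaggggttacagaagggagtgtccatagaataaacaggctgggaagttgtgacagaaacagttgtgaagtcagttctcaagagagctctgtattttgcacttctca

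Windows of 9 of the 10 members were found, Olig1 being the one without. The motif ACAAAG was present in 2 of these 9 windows and in 18.7% of 32851 windows of all genes. The window of Mobp held it 6 times, each time as its reverse complement CTTTGT and within the part before the start, and that of Opalin 2 times. AACAAT stood in 4 of 9 windows (10.7% of all), CAGCTG in 3 (16.3%), CTGGCAC in 2 (5.01%), CTGGTAC in 1, that of Mog (2.24%), and TATAAA in 2 (13.6%), while CATATG stood in 0 of 9 (3.91% of all). In Aspa, matches to TATAAA on both strands overlap each other. A match describes letters and shows no binding.

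In GRCm38 coordinates from GENCODE, Mog spans 37010743 to 37023398 on chromosome 17, Mobp 120149707 to 120181484 on chromosome 9, Opalin 41061710 to 41077113 on chromosome 19, Hapln2 88021750 to 88027583 and Cldn11 31149920 to 31164324 on chromosome 3, Olig1 91269772 to 91271933 and Olig2 91225457 to 91228677 on chromosome 16, Tmem88b 155781591 to 155785874 on chromosome 4, Ermn 58045113 to 58052864 on chromosome 2 and Aspa 73304992 to 73329596 on chromosome 11. All 10 are protein-coding genes. The RefSeq start region shown for Aspa lies inside its GENCODE span, so it is not at the outer end of that gene model. Exons of Ermn share 237 bases with Galnt5 on the other strand, those of Mobp 79 bases with Gm38642 on the same strand and those of Olig1 157 bases with Gm15966 on the other strand. Gm15966 had 0 reads in every library. Galnt5 had 669 to 4324 reads. With the strand setting of the counting not given, how reads in the part shared by Ermn and Galnt5 were assigned is not known.

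All 10 genes had reads in all 6 libraries. Their sum was 181, 128 and 248 CPM in burn 1 to 3, against 141, 149 and 102 CPM in control 1 to 3. Burn 2 was lower than control 1 and control 2 on this sum, so the groups overlapped. Exact Poisson intervals at 95%, which cover counting error only, ran from 175.6 to 186.7 CPM for burn 1 and from 100.1 to 104.6 CPM for control 3, while those of control 1 and control 2 overlapped, at 136.9 to 144.6 and 143.4 to 154.8 CPM. Mobp, Aspa and Cldn11 made up most of the reads. The other 7 genes, a subset chosen after their values were seen, summed to 23.0, 12.2 and 24.5 CPM in the burn libraries and 7.92, 6.51 and 3.92 CPM in the controls, on 521, 367 and 1610 reads against 290, 117 and 312. On this sum every burn library exceeded every control, and burn 1 and burn 3 stood at about the same level above burn 2.

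**Figure D1:**
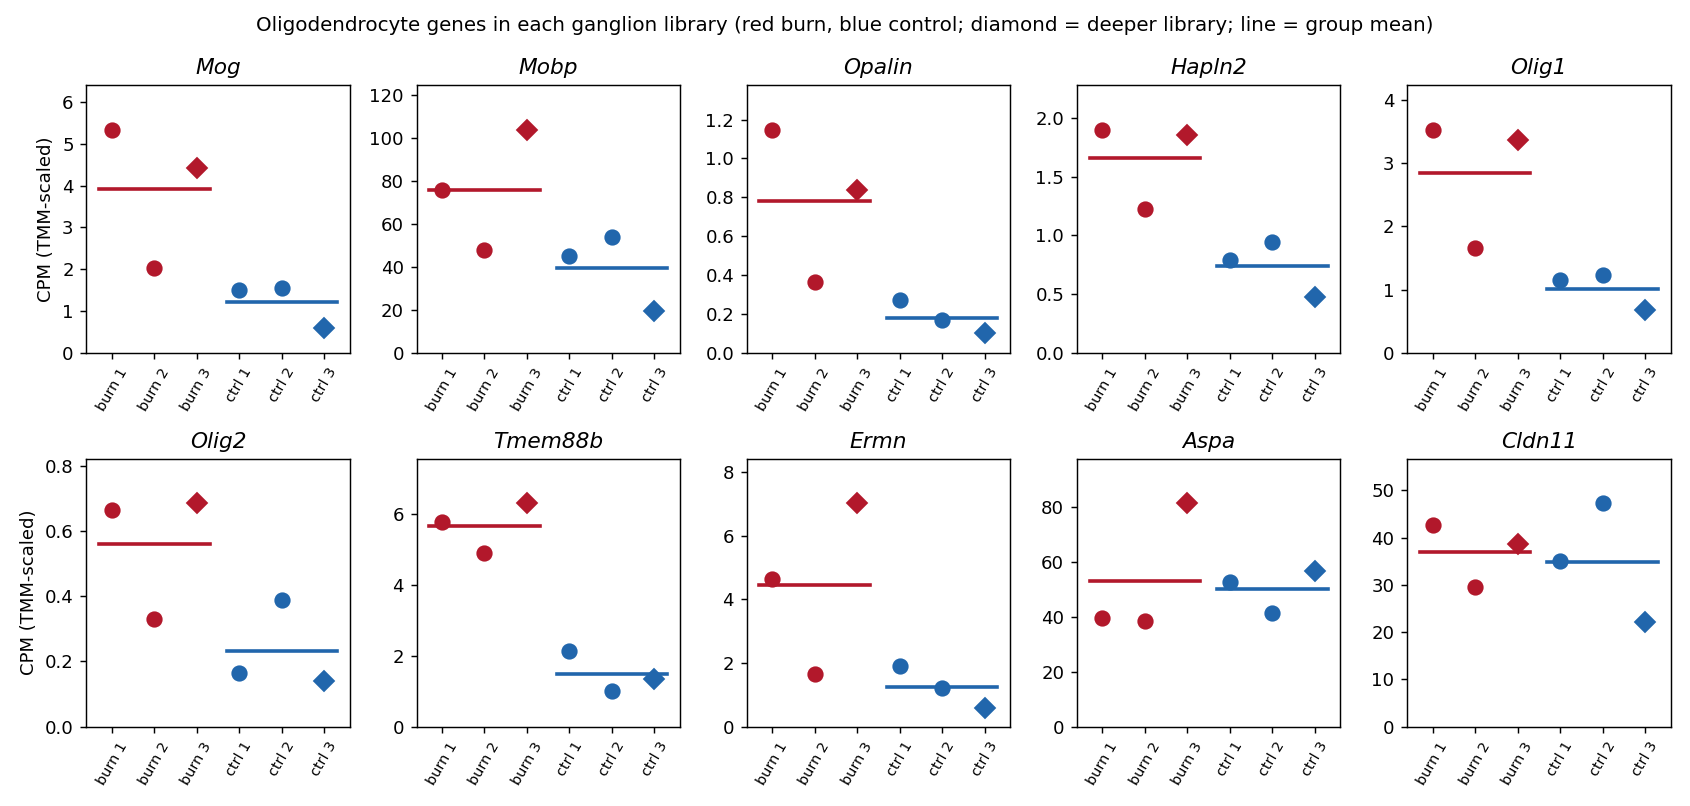
CPM of each of the 10 genes (y axis, linear from 0, own scale per gene) in the 3 burn libraries (red, left) and the 3 control libraries (blue, right); diamonds mark the deeper library of each group and lines the group means. Burn 1 and burn 3 are the highest libraries for Mog, Mobp, Opalin, Hapln2, Olig1, Olig2, Tmem88b and Ermn, while Aspa and Cldn11 have overlapping groups of similar mean.

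Among the structural genes, Mog encodes myelin oligodendrocyte glycoprotein, a protein of the outer surface of central myelin. Its level was 5.34, 2.02 and 4.43 CPM in burn 1 to 3, against 1.502, 1.56 and 0.591 CPM in control 1 to 3. Every burn library lay above every control, burn 2 narrowly so, and control 3 was the lowest. The edgeR log2 fold change was 1.75 (SE 0.48), a 3.35-fold higher mean level after the burn.

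Mobp encodes the myelin-associated oligodendrocyte basic protein, an abundant component of central myelin. It stood at 75.9, 47.8 and 104 CPM after the burn and 44.9, 53.8 and 19.6 CPM in controls. Here the groups overlapped, since control 2 exceeded burn 2, and control 3 was far under the others. The log2 fold change was 0.95 (SE 0.42).

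Opalin, a membrane glycoprotein of oligodendrocytes, was the sparsest of the structural genes, with 26, 11 and 55 reads in burn 1 to 3 and 10, 3 and 8 reads in control 1 to 3. In CPM these were 1.148, 0.364 and 0.837 after the burn, against 0.273, 0.167 and 0.101 in controls. The groups did not overlap, but burn 2 and control 1 were within counting error of each other, with exact Poisson intervals of 0.182 to 0.652 CPM and 0.131 to 0.502 CPM. Its log2 fold change of 2.18 (SE 0.55) was the largest of the 10.

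Ermn encodes ermin, a cytoskeletal protein of oligodendrocytes. It was at 4.64, 1.66 and 7.01 CPM after the burn and 1.91, 1.22 and 0.578 CPM in controls, with control 1 above burn 2. Burn 3 stood 12.1-fold above control 3, the widest range of any member. The log2 fold change was 1.88 (SE 0.61).

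Hapln2 encodes a link protein of the matrix around central nodes of Ranvier, the gaps between myelin segments. It had 1.90, 1.23 and 1.86 CPM in the burn libraries and 0.792, 0.946 and 0.478 CPM in the controls. The groups did not overlap, but the exact Poisson intervals of burn 2 and control 2 did, at 0.863 to 1.69 CPM and 0.551 to 1.51 CPM. Tmem88b, a gene of a transmembrane protein, had 5.79, 4.90 and 6.31 CPM after the burn, against 2.13, 1.002 and 1.36 CPM in controls. Its 3 burn values were close together and more than 2-fold above the highest control, which no other member showed. The log2 fold changes were 1.23 (SE 0.34) for Hapln2 and 1.90 (SE 0.29) for Tmem88b.

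Olig1 and Olig2 encode basic helix-loop-helix transcription factors that set oligodendrocyte identity and lie beside each other on chromosome 16. Olig1 had 3.53, 1.66 and 3.36 CPM in burn 1 to 3 and 1.147, 1.22 and 0.679 CPM in control 1 to 3, without overlap. Its exact Poisson intervals in burn 2 and control 2 overlapped, at 1.23 to 2.18 CPM and 0.767 to 1.85 CPM. Olig2 was lower, at 0.663, 0.331 and 0.684 CPM after the burn and 0.164, 0.390 and 0.138 CPM in controls, on 15, 10 and 45 reads against 6, 7 and 11. Control 2 exceeded burn 2 for Olig2. The log2 fold changes of the 2 factors were alike, 1.53 (SE 0.37) for Olig1 and 1.505 (SE 0.49) for Olig2.

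Aspa and Cldn11 behaved differently from these 8 genes. Aspa encodes aspartoacylase, the enzyme that releases acetate from N-acetylaspartate, which oligodendrocytes use for lipid synthesis. It stood at 39.6, 38.4 and 81.3 CPM in the burn libraries and 52.8, 41.5 and 56.6 CPM in the controls. Only burn 3 was outside the control range on the upper side, burn 1 and burn 2 were both under all 3 controls, and the log2 fold change was 0.08 (SE 0.30). Cldn11 encodes claudin 11, the tight junction protein of central myelin, also known from the arachnoid layer of the meninges and from Sertoli cells of the testis. Its level was 42.6, 29.5 and 38.5 CPM after the burn and 35.1, 47.2 and 22.2 CPM in controls, with a log2 fold change of 0.09 (SE 0.27). For Cldn11 a control library, control 2, was the highest of all 6.

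**Figure D2:**
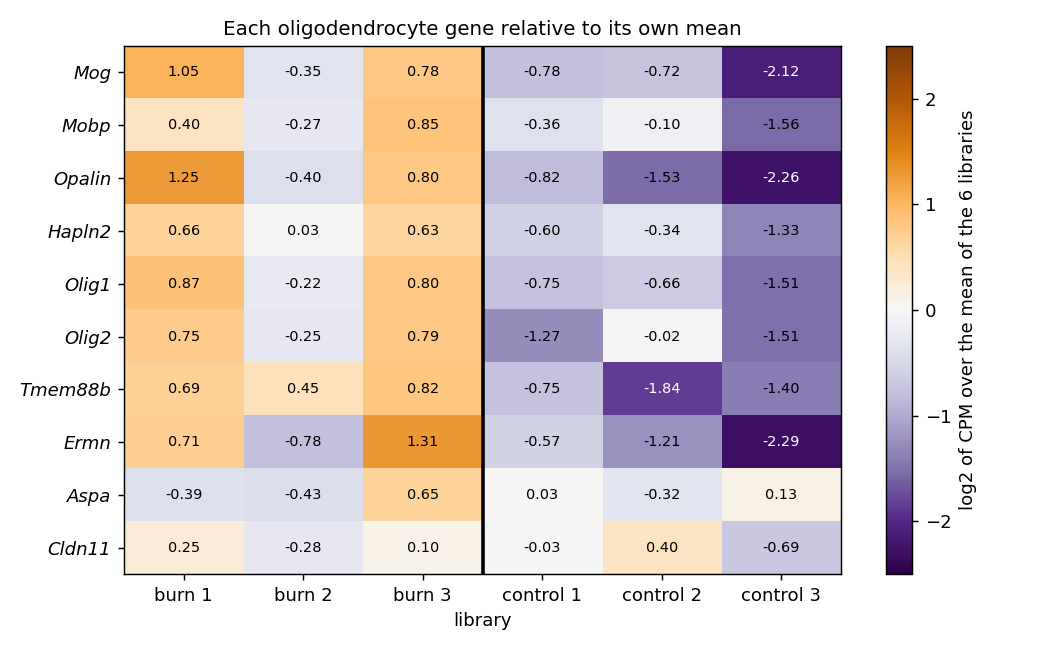
Level of each gene in each library relative to that gene's mean over the 6 libraries, as log2 of the CPM ratio (colour and printed value; columns are libraries with burn left of the line, rows are genes). Mog, Mobp, Opalin, Hapln2, Olig1, Olig2, Tmem88b and Ermn share a pattern with burn 1 and burn 3 high and control 3 low or near lowest, at -1.33 to -2.29, whereas Aspa stands at 0.13 in control 3.

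Taken library by library, burn 3 was the highest for 5 of the 10 genes, burn 1 for 4 and control 2 for 1, Cldn11. Control 3 was the lowest for 8 genes, control 2 for Tmem88b and burn 2 for Aspa. The order burn 1, burn 3, burn 2, control 2, control 1, control 3 was shared by Mog, Hapln2 and Olig1. As a measure of likeness over the 6 libraries, the Pearson correlation of each gene's log2 CPM with the mean profile of the other 9 was 0.98 for Olig1, Mog and Ermn, 0.97 for Hapln2, 0.95 for Mobp, 0.94 for Opalin, 0.90 for Olig2 and 0.76 for Tmem88b, against 0.57 for Cldn11 and 0.09 for Aspa. These points share their libraries and depths, and the values are descriptive.

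Ratios between genes within a library also varied. Mobp had 14.2, 23.7 and 23.4 times the CPM of Mog in burn 1 to 3, and 29.9, 34.5 and 33.2 times in control 1 to 3. Aspa had 0.522, 0.803 and 0.784 times the CPM of Mobp in the burn libraries and 1.18, 0.770 and 2.89 times in the controls. In burn 3, Aspa gave 32.8% of the reads of the 10 genes and Mobp 41.8%, while in control 3 Aspa alone gave 55.3% and Mobp 19.2%. The 10 genes thus did not keep fixed proportions from library to library.

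Per kilobase of exon, which allows levels of different genes to be compared, Cldn11 was the highest in both groups, at 19.7 ± 3.58 CPM per kilobase after the burn and 18.6 ± 6.70 in controls (SD, n = 3 each). Mobp stood at 11.1 ± 4.08 after the burn and 5.76 ± 2.59 in controls, and Aspa at 8.92 ± 4.11 and 8.45 ± 1.33. The ranges of Mobp and Aspa overlapped in each group, while Mobp was ahead after the burn and Aspa in controls. Next came Mog, at 2.31 ± 1.01 CPM per kilobase after the burn and 0.714 ± 0.319 in controls, set apart from the genes above it. From Mog through Tmem88b, Olig1 and Ermn to Hapln2, each gene overlapped the next in the order of its group. Opalin and Olig2, at 0.266 and 0.221 after the burn and 0.0612 and 0.0911 in controls, lay apart under Hapln2 and overlapped each other. Lengths are those of all annotated exons of a gene merged, so a gene read mainly from a short isoform is understated.

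In the fit of burn against control across all genes, 17534 genes passed the filter on low counts, all 10 members among them. Opalin passed it through the burn libraries alone, with 3 burn and 0 control libraries past the minimum of 0.303 CPM, and Olig2 with 3 and 1. edgeR's quasi-likelihood test at an adjusted p under 0.05 called 0 of the 10, where 0.0228% of all genes tested were called higher. At an unadjusted p under 0.05, 7 of the 10 were higher and 0 lower, beside 2.04% and 0.924% of all genes. DESeq2 called 1 member, Tmem88b, beside 0.104% of genes called higher, and limma-voom 0, beside 0.0171%. edgeR also called Tmem88b with a term for depth (0.097% of all genes called higher) and with no filter on low counts (0.0483%). All 10 had a positive log2 fold change, with a median of 1.52 beside 0.01 over all genes tested. Burn and control values did not overlap for 5 members, Mog, Opalin, Hapln2, Olig1 and Tmem88b, beside 4.33% of all genes with the burn values above. For Mog, Opalin, Hapln2 and Olig1 the exact Poisson intervals of burn 2 and the highest control overlapped. Those of Tmem88b did not. A log2 fold change above 1 stood at 7 members, and 1.15% of all genes passed that size. Because the members were chosen with this contrast known, these counts describe the choice and support nothing further.

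The difference was not even over the libraries. Between the deeper libraries, burn 3 and control 3, Mog stood 7.49-fold higher after the burn, Mobp 5.29-fold, Ermn 12.1-fold and Opalin 8.32-fold. Among the 4 shallower libraries the same genes stood 2.41-fold, 1.25-fold, 2.01-fold and 3.44-fold higher. All 10 members had a larger log2 difference between the deeper libraries than among the shallower ones, where Aspa and Cldn11 turned negative, at -0.26 and -0.20. Tmem88b was the steadiest, at 2.18 between the deeper and 1.83 among the shallower libraries on the log2 scale. Burn 3 and control 3 are also the libraries with the highest mitochondrial shares; the part of depth and of those shares in the difference was not tested.

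**Figure D3:**
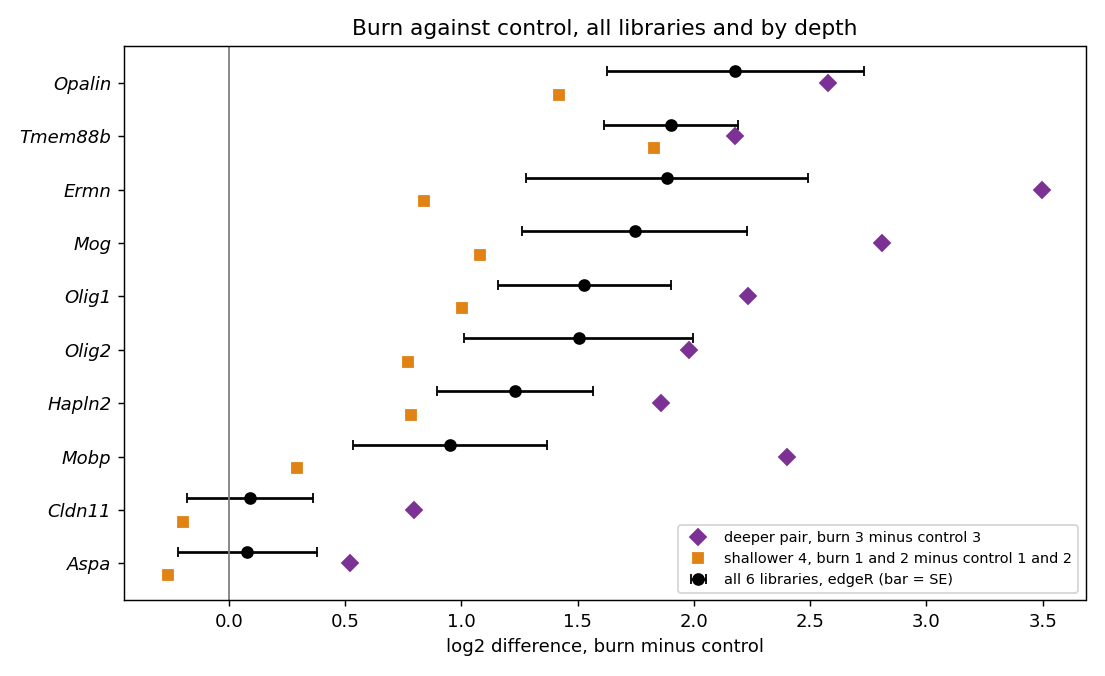
Log2 difference of burn minus control for each gene (x axis), from edgeR over all 6 libraries with its standard error (black), between the deeper libraries burn 3 and control 3 (purple) and among the 4 shallower libraries (orange). The purple point is right of the orange point for every gene, and only Aspa and Cldn11 have an orange point left of 0.

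Other genes of oligodendrocytes, from a list of 16 that excludes the members, showed a mixture. edgeR called 0 of the 14 tested, with 3 higher and 0 lower at unadjusted p under 0.05, beside 2.04% and 0.924% of all genes. In this and the lists that follow limma-voom called 0 genes and DESeq2 1, Gad2 of the spinal cord neuron list. The median log2 fold change was 0.20, beside 0.01 over all genes, with 12 of 14 positive. Burn values lay above all controls for 4 of 14, Myrf, Gpr17, Prr18 and Plekhh1, beside 4.33% of all genes. Myrf, the transcription factor of the myelin programme, was at 4.77, 1.82 and 4.58 CPM after the burn, against 1.45, 1.78 and 1.65 CPM in controls, and Gpr17, a receptor of immature oligodendrocytes, at 1.77, 0.993 and 1.10 CPM, against 0.437, 0.890 and 0.352 CPM. Both had burn 1 at the top, as Mog did; they are named after their values were seen. The most abundant of the list had closer group means than Myrf and Gpr17. Tspan2, a tetraspanin, averaged 102 CPM after the burn and 105 CPM in controls, and Bcas1, a gene of early myelinating cells, 47.8 and 40.5 CPM. Plekhh1, whose groups did not overlap, averaged 32.2 and 27.2 CPM. Ninj2 and Nkx2-2 were too low to be tested, each with a library at 0 reads.

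Genes of myelin as a whole followed another order of libraries than Mog. Of 12 genes shared by oligodendrocyte and Schwann cell myelin, all 12 were tested, and the median log2 fold change was -0.08. edgeR called 0, beside 0.0228% of all genes called higher. At unadjusted p under 0.05, 0 were higher and 0 lower, beside 2.04% and 0.924% of all genes. A list this short would hold few or no such genes at those shares. Mbp, which encodes myelin basic protein, averaged 1847 CPM after the burn and 1841 CPM in controls. The 11 Schwann cell myelin genes, all tested, likewise had 0 calls in edgeR and 0 genes at unadjusted p under 0.05, beside the same shares. Their median was -0.10. Mbp had 24.3, 23.4 and 24.9 times the CPM of Mobp in the burn libraries and 29.0, 47.0 and 86.1 times in the controls. The Schwann cell sum was lowest in burn 2, at 3288 CPM, and highest in control 2, at 7395 CPM, an order unlike that of the 8 genes.

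Markers of other cells that lie near the ganglion were set beside the members. Spinal cord neuron genes, 9 of 10 listed being in the files, summed to 22.3, 15.1 and 30.5 CPM in burn 1 to 3, against 13.4, 9.63 and 6.97 CPM in control 1 to 3. Burn libraries lay above controls on this sum, with burn 3 and burn 1 at the top and control 3 at the bottom. Of the 8 tested, edgeR called 0, with 6 higher and 0 lower at unadjusted p under 0.05 (2.04% and 0.924% of all genes), and DESeq2 called Gad2. All 8 were positive, the median log2 fold change was 1.26, and burn values lay above all controls for 5, where 4.33% of all genes did so. Slc6a5, the glycine transporter of inhibitory neurons, was at 8.44, 4.34 and 11.7 CPM after the burn and 3.88, 2.67 and 1.34 CPM in controls. Slc5a7, the choline transporter of cholinergic neurons, averaged 4.29 and 2.97 CPM, and Gad1, an enzyme of GABA synthesis, 3.44 and 1.64 CPM. Chat, the enzyme of acetylcholine synthesis, had 0 reads in control 2. The part of spinal cord transcripts in the levels of the oligodendrocyte genes was not tested. Another fit took the mean level of spinal cord neuron and astrocyte genes as a covariate. The median log2 fold change of the 10 members was then 0.06 in place of 1.52. Because that covariate shares its contrast with the groups, this fit cannot separate causes. Members differed under that covariate, with Tmem88b at 1.41 in place of 1.90 and Mobp at -0.63 in place of 0.95.

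Astrocyte genes, 8 listed and tested, summed to 237, 157 and 267 CPM in the burn libraries and 157.5, 178 and 124 CPM in the controls, so the groups overlapped. Calls by edgeR numbered 0, with 3 higher and 0 lower at unadjusted p under 0.05 (2.04% and 0.924% of all genes), and the median log2 fold change was 0.11. Slc1a2, the main glutamate transporter of astrocytes, was at 74.8, 38.7 and 116 CPM after the burn and 38.5, 42.5 and 21.7 CPM in controls, an order of libraries identical to that of Mobp. Mlc1, another astrocyte membrane protein, averaged 26.6 CPM after the burn and 29.0 CPM in controls, and Aqp4, a water channel, 32.8 and 22.2 CPM. Genes of oligodendrocyte precursors, 4 of 5 in the files being tested, had a median of 0.18 and 0 calls by edgeR. At unadjusted p under 0.05 they also numbered 0 (2.04% higher and 0.924% lower over all genes). The most abundant of them, Pdgfra, a growth factor receptor that fibroblasts also make, averaged 90.9 CPM after the burn and 81.6 CPM in controls, and Cspg4, which pericytes also make, 63.2 and 54.3 CPM.

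Genes of the leptomeninges, the inner membranes that sheathe the roots, summed to 1189, 560 and 674 CPM after the burn and 1011, 1880 and 560 CPM in controls. Burn 1 and control 2 were the highest libraries, and burn 2 and control 3 the lowest, as they were for Cldn11. Of the 10 listed and tested, edgeR called 0, with a median log2 fold change of -0.34. It placed 0 at unadjusted p under 0.05, beside 2.04% higher and 0.924% lower over all genes. Ptgds, a prostaglandin D synthase, was the most abundant, at 717, 354 and 435 CPM after the burn and 713, 1331 and 323 CPM in controls, and Igf2, a growth factor, averaged 161 and 196 CPM. The part of meningeal transcripts in the level of Cldn11 was not tested. Skeletal muscle genes, 8 listed, summed to 2611, 9746 and 1619 CPM in burn 1 to 3 and 10634, 3578 and 623 CPM in control 1 to 3. Burn 2 and control 1, the libraries richest in muscle transcripts, were not those richest or poorest in Mog. Control 3, the poorest in muscle transcripts, was also the lowest for Mog, at 0.591 CPM. The part of muscle transcripts in these levels was not tested. Lists of sensory neuron genes (10 tested, median -0.11), satellite glia genes (6 tested, median 0.10) and muscle genes (8 tested, median -0.01) had 0 calls each in edgeR. Each also had 0 genes at unadjusted p under 0.05, beside the same shares, at which lists this short would hold few or none.

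**Figure D4:**
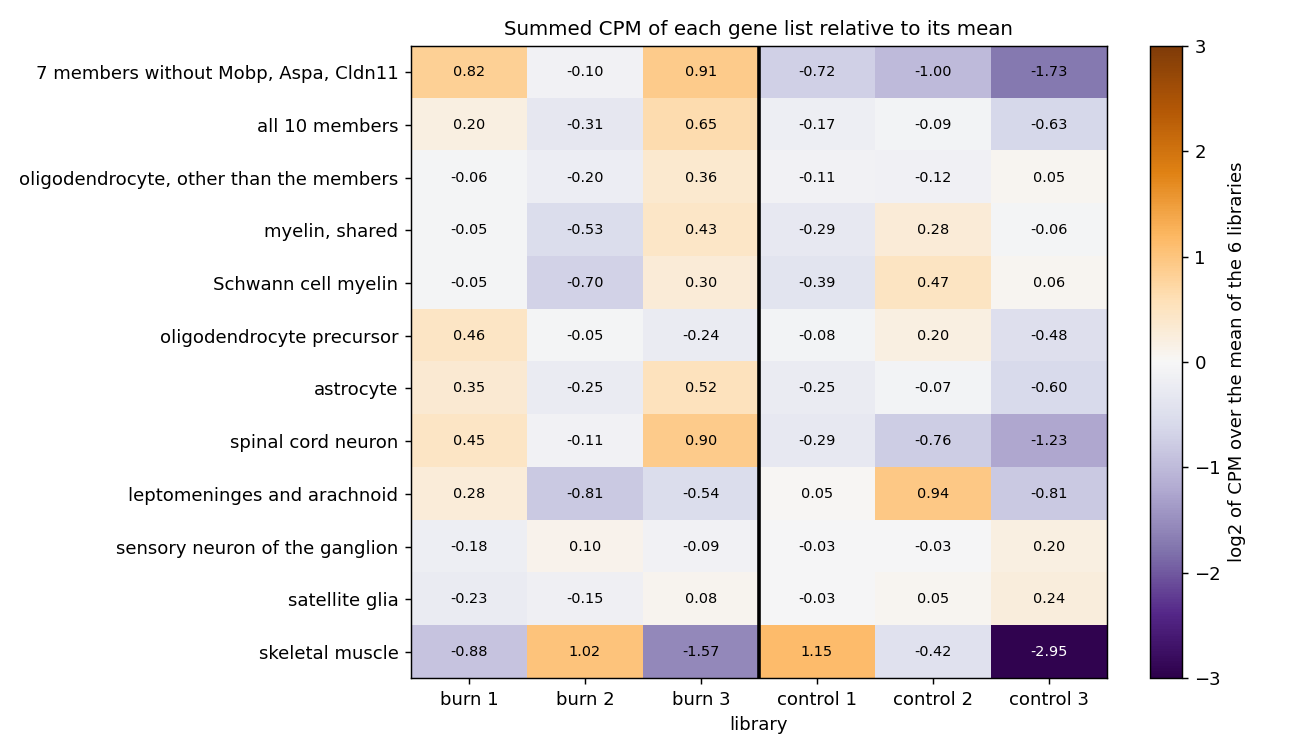
Summed CPM of each gene list in each library relative to the list's mean over the 6 libraries, as log2 (colour and printed value; burn libraries left of the line). The 7 members without Mobp, Aspa and Cldn11 are a subset chosen after their values were seen. This subset and the spinal cord neuron genes run from 0.91 and 0.90 in burn 3 to -1.73 and -1.23 in control 3. All 10 members run from 0.65 to -0.63 between the same libraries and astrocyte genes from 0.52 to -0.60, both with overlapping groups. Schwann cell myelin has its highest value, 0.47, in control 2.

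Among 15522 other genes whose log2 CPM averaged 0 or more, the 15 that followed the mean profile of the 10 members most closely over the 6 libraries had Pearson correlations of 0.98 to 0.99. They were Kcnk9, Gm12186, Lca5l, Tmem159, Kcnab3, Prr14l, Htr2c, Cep112, Slc12a5, Slc6a5, Slc1a2, Lyst, Adamts6, Gad2 and Gabra3. Of these 15, 3 were in a list used here, Slc6a5, Slc1a2 and Gad2. The members were chosen with the contrast known, so genes that follow their profile tend to stand higher after the burn by that choice. Their log2 fold changes are a description, and the largest were those of Gad2, Slc6a5, given above, and Htr2c. Gad2, an enzyme of GABA synthesis, was at 2.43, 1.46 and 3.41 CPM after the burn and 0.847, 0.723 and 0.327 CPM in controls, and Htr2c, a serotonin receptor, at 2.83, 1.89 and 4.21 CPM, against 1.34, 1.28 and 0.666 CPM. Slc12a5, the neuronal potassium-chloride cotransporter, was at 12.4, 6.76 and 14.3 CPM after the burn and 5.24, 7.23 and 3.32 CPM in controls. Others varied little, such as Lyst, a regulator of lysosomal trafficking, at 160 to 188 CPM after the burn and 136 to 160 CPM in controls. Correlations above 0.9 were found for 162 of the 15522 genes, and without burn 3 only 2 of the 15 were again among the closest 15.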

How the data were processed

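Stranded total RNA of whole ganglia was sequenced as single-end reads of 75 nucleotides, per the labels' protocols and the series' design text. The authors deposited raw counts of reads per gene symbol, 1 file per library. Per the submitters' processing notes the tools were STAR, SAMtools and HTSeq on mm10 or GRCm38; versions, annotation and strandedness of counting stand as not given in the sources used here. The 5 tally lines that name no gene, 49.2% to 56.2% of entries, were left out.

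Counts were fitted in R 4.3.3 with edgeR 4.0.16 (filterByExpr with a minimum count of 10 and a minimum total of 15, TMM scaling, glmQLFit with robust set, glmQLFTest, two-sided, group as the only term), and called at a Benjamini-Hochberg adjusted p under 0.05 over all genes tested. The fit was tested on simulated data. A standard error is the log2 fold change divided by the square root of F. CPM use scaled library sizes, and log2 CPM a prior count of 2. DESeq2 1.42.0 and limma 3.58.1 served as alternatives, with other scalings and filters, a replicate block, a depth term, a covariate and each library left out. Exon lengths, merged over isoforms, came from GENCODE mouse release 21, in which 91.4% of symbols were found. Figures used matplotlib 3.10.9.

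The members, gene lists and tests were chosen with earlier results of these data known. The rule for named genes took all 10 members, the 3 most abundant genes of each other list, any called, and the 15 genes most like the members; other names were chosen after their values were seen. A few genes named by this rule are not reported here.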

Additional observations from a re-analysis of the deposited data

How the results depend on the processing

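Of the 10 genes, Opalin, Hapln2, Olig1, Olig2 and Tmem88b had a positive log2 fold change under every alternative in which they were tested. Those numbered 19 for Hapln2, Olig1 and Tmem88b, 18 for Olig2 and 16 for Opalin. The genes were chosen with this contrast known and the alternatives share libraries, so the constant sign is a description. Calls among the 10 numbered 0 except for Tmem88b, which was 1 call with no filter on low counts, with DESeq2 and with the depth term, all 3 of which change the count from 0 to 1. Leaving out 1 library at a time gave 0 calls among the 10, a median of 1.22 to 1.78, and 1 to 6 calls over all genes; it was 1 call without burn 2, control 1, control 2 or control 3. The total of 4 calls over all genes was 7 at an adjusted p under 0.1, 14 with no filter, 28 with DESeq2, 38 with the depth term (21 of them lower), 15 with the 4 shallower libraries alone (4 lower) and 0 with the spinal cord and astrocyte covariate. The median log2 fold change of the 10 was 1.52. It was 0.95 with the 4 shallower libraries, where Opalin, the member with the largest fold change, was not tested. These medians therefore cover unlike sets of genes. With the spinal cord and astrocyte covariate the median of the 10 was 0.062. That covariate shares its contrast with the groups and cannot separate causes. With the covariate the sign turned for Mog (-0.061), Mobp (-0.63), Ermn (-0.54), Aspa (-0.23) and Cldn11 (-0.80), while Tmem88b stood at 1.41. Aspa was also negative with limma-voom (-0.0029), the depth term (-0.0053) and the 4 shallower libraries (-0.26). Left out one at a time, libraries gave Aspa -0.36 to 0.27, negative only without burn 3 or control 2. Cldn11 was also negative with the 4 shallower libraries (-0.17). It ran from -0.15 to 0.37 when libraries were left out, negative only without burn 1 or control 3. The replicate block was fitted over the 4 libraries whose titles carry a number that both groups share. It gave a median of 0.92, again with Opalin not tested. Calls numbered 4 over all genes and 0 among the members tested, with Aspa at -0.25 and Cldn11 at -0.18. No label says that the numbers pair libraries, and same-numbered libraries did not deviate together (correlations of -0.09 and -0.06 across genes), while burn 1 with control 2 gave 0.44 and burn 2 with control 1 gave 0.38. The cause of these shifts was not tested. Depth limits Opalin and Olig2 most, with 3 and 6 reads in their lowest libraries.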
